A study of Danio rerio with 16 samples.

Results

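Somatic cells of zebrafish embryos were compared between 24 and 7 hours post fertilisation (hpf), the interval in which the gastrula becomes a pharyngula-stage embryo with its organ rudiments in place. The comparison rested on 4 of the 16 whole-genome bisulfite libraries of the series, 2 of soma at 24 hpf and 2 of soma at 7 hpf, and all 4 were used. Both groups came from embryos of a transgenic line (kop-egfp-f-nanos3′UTR in the labels, with a cry-DsRed cassette besides in the study's methods), which marks primordial germ cells (PGCs), and the somatic cells were the sorted fraction of those embryos that is not germline. The other libraries were soma at 4 and 36 hpf and PGCs at all 4 stages, with 2 libraries each. The counts came in 2 tables, one for each replicate number, here called replicate 1 and replicate 2, and the level of a window is the share of its CpG calls that were methylated. The labels do not say what libraries of one number share beyond the table. Of 18451728 nuclear CpGs in either table, the 10260021 in both were used. They were grouped into 500 bp windows, of which 756582 (holding 7563541 CpGs) held 5 or more CpGs and had 20 or more calls in every one of the 4 libraries. Changes are given as 24 hpf minus 7 hpf, in percentage points, within each table.

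In vertebrates most CpGs carry 5-methylcytosine (5mC), which DNMT1 copies onto the new strand at each cell division, whereas CpG-rich promoters are mostly free of it. DNMT3 enzymes add new methylation, and TET enzymes oxidise 5mC as a step towards its removal, which in zebrafish is known for enhancers of the pharyngula stage. The zebrafish embryo does not go through the genome-wide erasure known from mammals. The somatic fraction is a mixture of cell types that differs between the stages, so a change within cells and a change in which cells were present cannot be told apart. A level between the extremes likewise does not tell whether some cells lost all methylation or all cells lost some. Cell type markers could not be checked in methylation data.

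Over the CpGs in both tables, the mean coverage was 13.6 and 15.9 calls per CpG in the 24 hpf libraries (replicate 1 and replicate 2), against 6.74 and 14.2 calls in the 7 hpf libraries. The 7 hpf library of replicate 1 was therefore the shallowest, with a median of 54.0 calls per tested window. Unmethylated lambda DNA read as 0.307% methylated at 24 hpf and 0.307% at 7 hpf in replicate 1. In replicate 2 it had 0 methylated of 69 calls at 24 hpf, which allows a level of up to 4.35%, and 0 of 80 calls at 7 hpf, which allows up to 3.75%. Mitochondrial CpGs read as 0.401% and 0.4% at 24 hpf, against 0.540% and 0.358% at 7 hpf. The lambda level of replicate 2 thus rested on too few calls to set beside a change of this size. These sequences bear on unconverted cytosines only, and conversion of methylated cytosines was not tested.

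The overall level of somatic methylation was a little lower at 24 hpf. Pooled over all calls it was 82.9% and 82.8% at 24 hpf (mean 82.8%, SD 0.0535, n = 2), against 83.8% and 84.9% at 7 hpf (mean 84.3%, SD 0.814, n = 2). Both 24 hpf libraries were below both 7 hpf libraries, and the difference of -1.50 points had an exact two-sided permutation p of 0.333, the smallest that 2 against 2 libraries can give. It was -0.882 points in replicate 1 and -2.11 in replicate 2. The tables differed less when each CpG counted equally, at -2.52 and -2.34 points, a mean of -2.43 points (exact permutation p = 0.333).

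The difference was broad and shallow, with a small set of deep losses and a smaller set of gains on top of it. The mean change of a tested window was -2.47 points in each table, with 69.6% of windows lower at 24 hpf in replicate 1 and 71.4% in replicate 2. A window was called when edgeR's quasi-likelihood test gave an adjusted p under 0.05 and the change was at least 10 points the same way in both tables. By this rule 11687 windows were lower at 24 hpf, 1.54% of those tested, and 1416 were higher, 0.187%. At an unadjusted p under 0.05 there were 103987 windows in both directions, 13.7% of all. The called losses averaged -28.3 points in replicate 1 and -29.1 in replicate 2, and the called gains 32.7 and 27.9 points. Changes of at least 10 points went the same way in both tables in 18130 windows for a loss and 3349 for a gain, and opposite ways in 2951. Across windows the changes of the tables, which share no library, had r = 0.443, as a description over windows that are not independent.

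**Figure D1:**
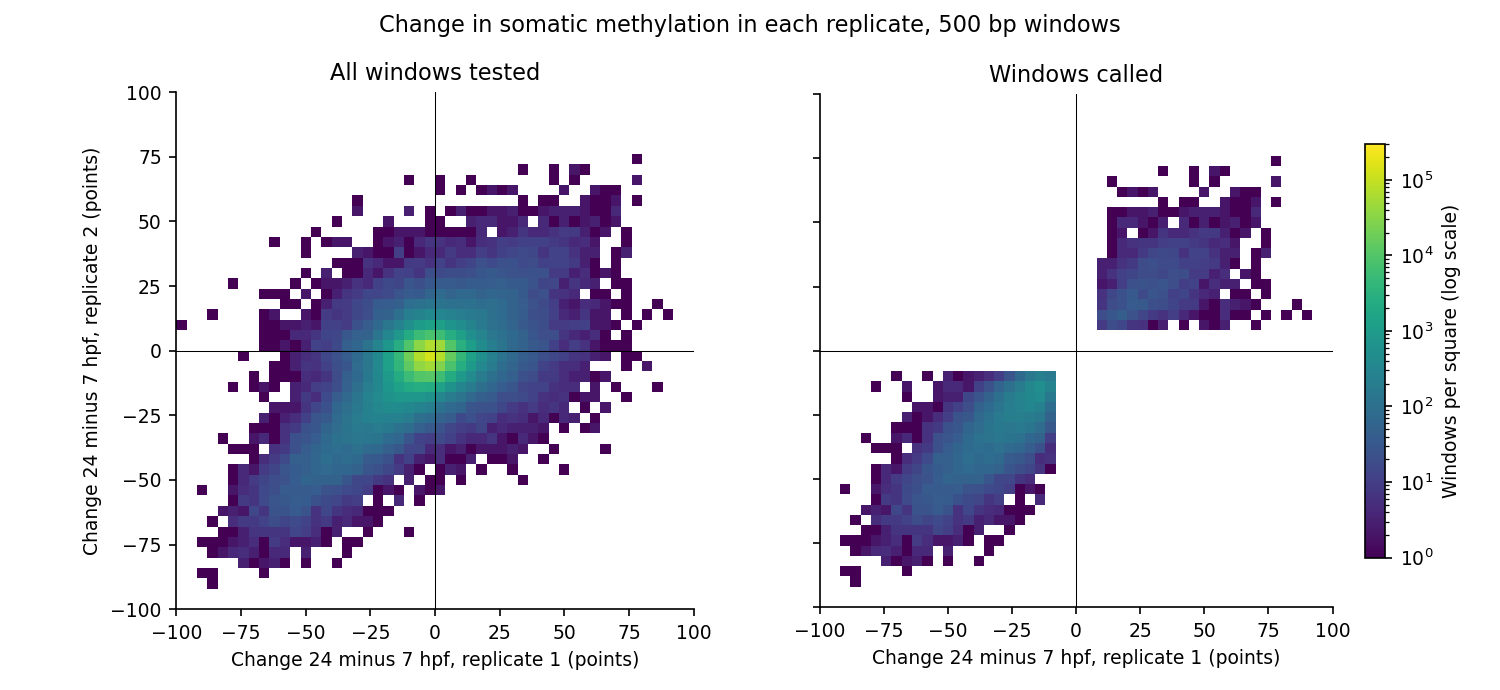
Change in somatic methylation from 7 to 24 hpf in replicate 1 (x axis, points) and replicate 2 (y axis, points); each square is 4 by 4 points and its colour is the number of 500 bp windows on a log scale, for all 756582 windows tested (left) and for the called windows (right). Most windows lie near the centre, a tail of losses runs along the diagonal, and the gains scatter more widely.

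The calls depended on depth and on the test. limma on log ratios called 3645 lower and 321 higher windows, all of them among those of edgeR. Leaving out the 24 hpf library of replicate 1 left 875 higher windows, and leaving out that of replicate 2 left 7508 lower windows. Thinning each window to the calls of its shallowest library ended every call, with 0 lower and 0 higher windows by edgeR and 63518 at an unadjusted p under 0.05. In that fit edgeR's prior had 1.24 degrees of freedom, against 64 without thinning, so the fit does not measure the part of depth alone. Thinning whole libraries to the shallowest total, chosen after seeing the data, left 9155 lower and 1103 higher windows.

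Most of the net change lay outside the called windows. Weighted by CpGs, the tested windows had a mean change of -2.15 points in replicate 1 and -2.17 in replicate 2. The called losses held 1.54% of the CpGs and carried 19.8% and 20.1% of it, while the windows that were not called carried 84.3% and 83.3%, and the called gains offset the remainder. The windows not called had a mean change of -2.13 and -2.10 points, and their quartiles were -4.04 and -0.0838 points. The split between called and not called depends on the rule, and it was read in the libraries that made the calls. Of 18130 windows at least 10 points lower in both tables, 11687 were called.

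At single CpGs, the broad difference appeared as fewer sites with all of 10 calls methylated. CpGs with at least 10 calls in both libraries of a table were thinned to 10 calls, so that sites were compared at equal depth. Depth still decided which CpGs entered. Their mean level at 24 and 7 hpf was 74.3% and 76.6% in replicate 1, and 81.9% and 84.2% in replicate 2. The mean of all tested windows was 86.2% and 88.7% in replicate 1, and 86.2% and 88.6% in replicate 2. In replicate 2, 48.7% of 5410604 CpGs had all 10 calls methylated at 24 hpf, against 61.0% at 7 hpf. In replicate 1, where 1853149 CpGs had that depth, it was 44.3% at 24 hpf and 57.1% at 7 hpf. The class with 9 methylated calls was larger at 24 hpf, with 25.6% against 19.8% in replicate 2 and 22.7% against 16.5% in replicate 1. So was the class with 5 to 8, with 13% against 6.80% in replicate 2 and 12% against 5.72% in replicate 1. Sites without a methylated call made up 10.2% at 24 hpf against 10.5% at 7 hpf in replicate 2, and 17.9% against 18.2% in replicate 1. The share of sites without a methylated call thus differed little. The class with all 10 calls methylated was smaller at 24 hpf, and the classes of 9 and of 5 to 8 were larger by similar amounts. Sites were not followed from class to class, and 10 methylated calls do not show that a site was fully methylated.

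The direction of the change followed the level at 7 hpf. The scale sets part of this, since the lowest windows could barely fall and the highest could barely rise. Classes of level were taken from the 7 hpf library of the other table, so that noise in a level did not enter its own change. Windows at 90 to 100% had a mean change of -2.84 points in replicate 1 and -2.80 in replicate 2, and windows at 80 to 90% of -2.81 and -2.62. Windows at 50 to 80% showed no shared direction, with 0.183 and -1.31 points. Windows at 10 to 50% had a mean change of 5.49 and 2.60 points, and windows under 10% of 0.852 and 0.879. Unmethylated windows thus stayed close to unmethylated, with means of 2.48% and 2.70% at 24 hpf, against 1.62% and 1.82% at 7 hpf. With classes taken from the same table's soma library, into which that noise enters, the class at 80 to 90% had a mean change of 1.32 and -0.960 points. With classes from the same table's 7 hpf PGC library it was -1.74 and -2.48 points. Its sign in replicate 1 thus rests on how the class was chosen.

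The called windows were spread over these classes unevenly. Among windows at 90% or more at 7 hpf in both tables, 1.64% of 582389 were called lower, and the 10 points that a call requires left no room for a gain. Among the 6198 windows at 10 to 50% in both, 5.10% were called higher and 0.161% lower. Windows under 10% in both, which cannot lose 10 points, gave 656 of the 1416 gains. That was 1.57% of these 41760 windows, a smaller share than at 10 to 50%.

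CpG density, counted as the CpGs of a window listed in either table, went with the size of both changes. A CpG was listed only where all 8 libraries of a table had a call, so this count also depends on coverage. Windows with 5 to 7 listed CpGs had a mean change of -3.38 and -3.26 points, and those with 20 or more of -0.986 and -0.990. The order held in both tables over the classes of 8 to 12 (-2.83 and -2.82) and 13 to 19 CpGs (-2.06 and -2.15). Within windows at 90 to 100% at 7 hpf in both tables, a class into which the noise of each table's own 7 hpf level enters, the order was the same, with -3.56 and -3.39 points at 5 to 7 CpGs and -1.73 and -1.62 at 20 or more. Called losses took 0.758% of the densest class, against 1.46% to 1.74% of the others. Called gains ran the other way, with 0.0230%, 0.0867%, 0.225% and 0.633% from the sparsest class to the densest. Levels at 7 hpf also differed between these classes, and windows at 90% or more could not be called higher. Windows under 10% in both tables were 15844 of 100535 in the densest class and 1988 of 135038 in the sparsest. Among windows under 10% the shares called higher rose less steeply, with 0.905%, 1.31%, 1.66% and 1.73% from the sparsest class to the densest. Called gains were most frequent in windows with 20 or more CpGs at 10 to 50% at 7 hpf in both tables. There 159 of 1122 were called higher (14.2%) and 1 lower, and the mean change was 10.9 and 7.23 points. Denser windows hold more calls, so the shares called also follow the power of the test, whereas the mean changes do not.

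**Figure D2:**
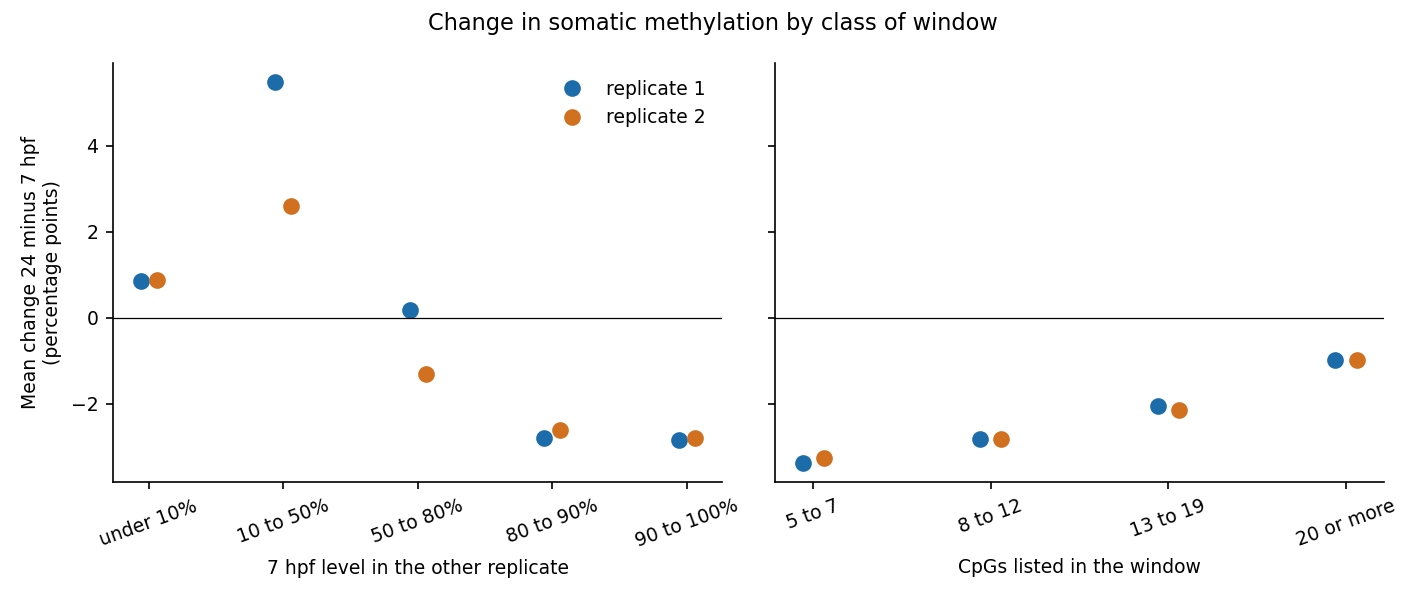
Mean change in somatic methylation, 24 minus 7 hpf (percentage points), by the 7 hpf level of the window in the other table (left) and by the CpGs listed in the window (right), with 1 point per table. The mean change was negative in both tables from 80% up and positive under 50%, and it was -0.986 and -0.990 points in the densest class.

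A window that is chosen for a large change also carries the noise that made it large. Windows were therefore chosen in one table (Fisher's exact test, adjusted p under 0.01, at least 20 points) and measured in the other, whose libraries took no part. The losses held up. The 8031 windows chosen in replicate 1 had a mean change of -29.6 points in replicate 2, against -36.0 in replicate 1, and 94.0% of them were lower there. The 9624 chosen in replicate 2 had a mean change of -27.7 points in replicate 1, against -34.1 in replicate 2, and 95.5% were lower. Over all tested windows 71.4% were lower in replicate 2 and 69.6% in replicate 1.

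The losses were partial at 24 hpf. Measured in replicate 2, 59.9% of the windows chosen for a loss lay between 50 and 80% at 24 hpf and 2.32% lay under 20%, against 5.62% and 1.27% at 7 hpf. In replicate 1 it was 62.0% and 1.05% at 24 hpf, against 3.87% and 0.810% at 7 hpf. Single CpGs inside them were also intermediate. Thinned to 10 calls, 49.1% of CpGs in replicate 2 had 5 to 8 methylated calls at 24 hpf, against 18.3% at 7 hpf, and 1.87% had none, against 0.870%. In replicate 1, 52.7% had 5 to 8 at 24 hpf, against 10.1% at 7 hpf. The loss was shared by most sites of a window: of CpGs with at least 10 calls in both libraries, 87.4% were lower in replicate 2 and 90.6% in replicate 1, against 44.7% and 41.3% of such CpGs in all tested windows.

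Across the stages, the mean level of the windows chosen for a loss was lower again after 24 hpf. They were chosen for a loss between 7 and 24 hpf, so the large step in that interval follows from the choice. In replicate 2 the mean level of the chosen windows at 4, 7, 24 and 36 hpf was 91.6%, 88.9%, 59.3% and 47.5%. In replicate 1 it was 93.1%, 92.0%, 64.3% and 55.0%. The chosen windows were already somewhat lower at 7 than at 4 hpf, with a mean change of -2.73 points in replicate 2 and -1.01 in replicate 1, against -0.297 and -0.0569 over all tested windows. The libraries at 4 hpf are described as technical replicates, and those of the later stages as biological ones. At 36 hpf 56.5% of the windows in replicate 2 and 47.6% in replicate 1 were lower than at 24 hpf by a further 10 points or more, while 3.35% and 3.72% were higher by that much. Over all tested windows these shares were 5.69% and 4.16% for lower levels and 1.37% and 1.75% for higher ones.

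The gains were fewer and less repeatable. The 2738 windows chosen in replicate 1 had a mean change of 11.6 points in replicate 2, against 35.7 in replicate 1, and 71.5% were higher there. The 1853 chosen in replicate 2 had a mean change of 20.3 points in replicate 1, against 31.2 in replicate 2, and 82.1% were higher. The table with the shallowest 7 hpf library was the one that chose more gains, and the part of depth in this was not tested. In replicate 1 the windows chosen for a gain had mean levels of 30.4%, 32.7%, 53.0% and 54.7% over the same stages, and in replicate 2 of 38.9%, 41.3%, 52.9% and 54.9%. The choice rested on a gain between 7 and 24 hpf, so the larger step in that interval follows from it. From 4 to 7 hpf the mean level moved by 2.37 points (replicate 1) and 2.47 points (replicate 2). From 24 to 36 hpf it moved by 1.65 and 2.02 points. Single windows moved more: 19.7% in replicate 1 and 20.3% in replicate 2 were higher at 36 hpf by 10 points or more. Another 14.1% and 11.9% were lower by that much. Over all tested windows these shares were 1.75% and 1.37% for higher levels and 4.16% and 5.69% for lower ones. Single CpGs in the windows of gain were often intermediate at both stages, unlike those of the losses. Of CpGs with at least 10 calls in both libraries, 72.7% were at 20 to 80% at 24 hpf in replicate 1, against 45.5% at 7 hpf. In replicate 2 it was 65.2% against 48.2%. CpGs without a methylated call among 10 made up 3.98% at 24 hpf against 26.6% at 7 hpf in replicate 1, and 5.57% against 18.7% in replicate 2.

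**Figure D3:**
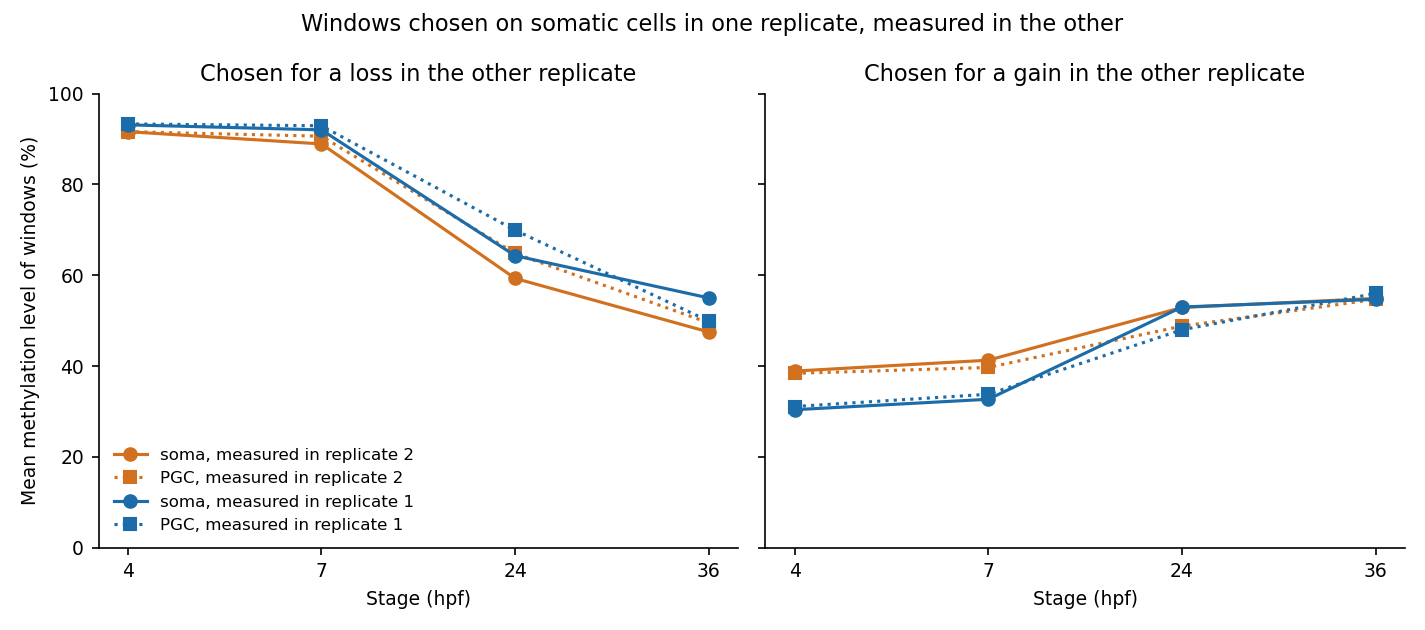
Mean methylation level (%) at 4, 7, 24 and 36 hpf of windows chosen on somatic cells in one table and measured in the other, for losses (left) and gains (right); solid lines are soma, dotted lines PGCs, and colour is the table measured. In the windows of loss the mean of soma is lower at 24 than at 7 hpf and lower again at 36 hpf. In the windows of gain that mean is nearly level from 24 to 36 hpf.

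The losses were narrow. Next to a window chosen for a loss, the neighbours at 0.50 kb had a mean change of -14.1 points in replicate 1 and -14.7 in replicate 2, about midway to the surroundings. At 1.0 kb the change was -5.28 and -5.51 points, and at 8.0 kb still -4.31 and -4.57, against -2.47 over all tested windows. The surroundings of losses were thus also lower at 24 hpf than the average window. Gains reached further, with 17.2 points at 0.50 kb and 9.55 at 1.0 kb in replicate 1, and 9.65 and 4.46 in replicate 2. Of the 11687 called losses, 8859 stood alone and 140 runs held 3 or more adjacent windows. Of the 1416 called gains, 886 stood alone and 33 runs held 3 or more. However, only 7706 of the called losses and 1017 of the called gains had an adjacent window that was tested. The others could only stand alone. An adjacent called window was found for 2828 losses and 530 gains. More than 3 times a library's median calls per CpG was found in 42 called gains (2.97%). It was found in 0.0171% of called losses and 0.421% of all windows tested. Without such windows 1378 were called higher.

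**Figure D4:**
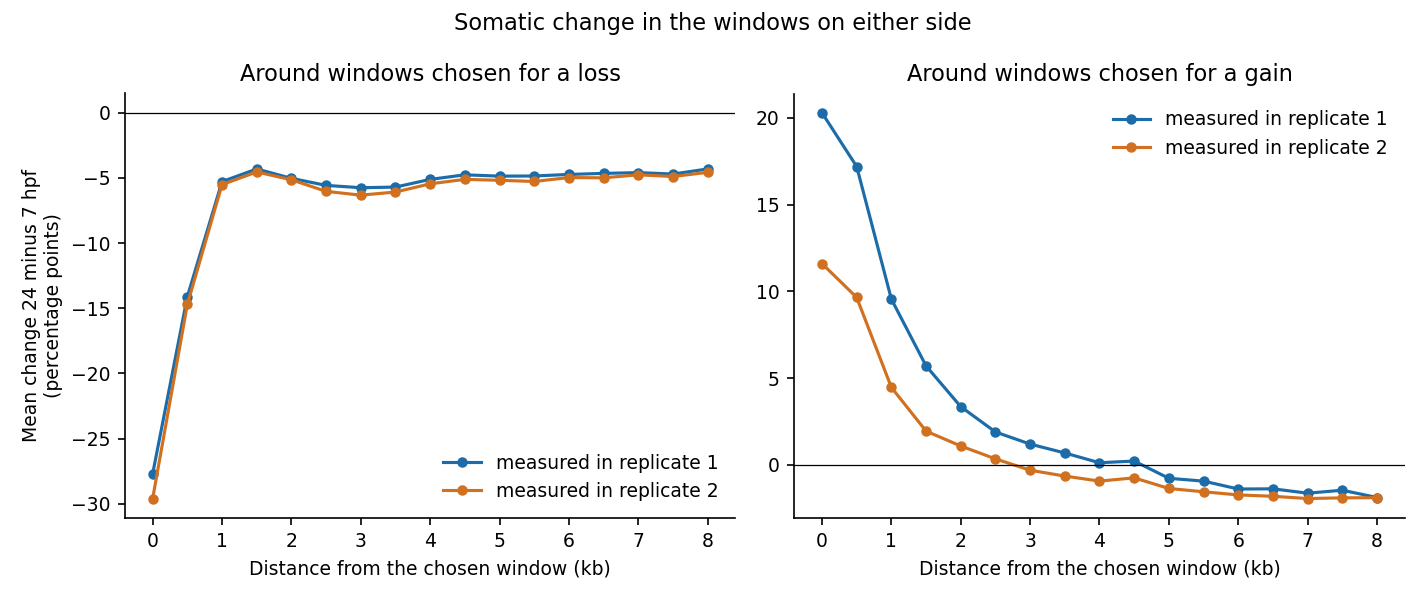
Mean somatic change, 24 minus 7 hpf (percentage points), in windows at 0 to 8.0 kb on either side of windows chosen for a loss (left) or a gain (right) in the other table, by the table measured. The loss drops to -5.28 and -5.51 points within 1.0 kb, and the gain fades over several kilobases.

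Losses were about as frequent beside unmethylated windows as elsewhere. Unmethylated windows were defined on the 7 hpf PGC libraries, which took no part in the calls, as those under 10% in both tables. Of the called losses at 80% or more in those PGC libraries, 1.03% lay within 1 kb of one, against 1.18% of all tested windows at that level. Called gains were often such windows themselves: 652 of 1416 (46.0%), against 5.50% of all windows tested. However, 77.0% of all tested windows were at 90% or more in both 7 hpf soma libraries, which left no room for a called gain. Of the 41617 unmethylated windows 1.57% were called higher, against 5.36% of the 6376 at 10 to 50% in both 7 hpf PGC libraries. Another 10.9% of the called gains lay within 1 kb of an unmethylated window, against 1.86% of all windows tested. Within a band of 10 to 80% the order was the other way round, though levels were not matched inside it. Windows at 50 to 80% in both 7 hpf PGC libraries were called higher in 0.978% of 6239, against the 5.36% at 10 to 50%. Of the 460 called gains at 10 to 80% in both 7 hpf PGC libraries, 16.1% lay within 1 kb of an unmethylated window and 31.7% within 5 kb, against 24.2% and 37.2% of all tested windows at that level. These shares were not tested.

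The deepest losses had low methylation at 24 hpf and nearly full methylation at 7 hpf in both tables. The 10 with the largest mean change, among called windows with at least 10 calls per CpG in each library and no more than 3 times a library's median, lay on 10 chromosomes and are numbered by the size of the change. Coordinates are of danRer10, and no annotation of that build was used, so the windows are given without gene names. Loss 1 (chr3:59869501-59870000, 13 CpGs) was at 7.39% and 10.6% at 24 hpf in replicate 1 and replicate 2, against 97.9% and 97.1% at 7 hpf (adjusted p = 2.52e-14). It was still at 8.65% and 8.13% at 36 hpf. Loss 2 (chr12:36185001-36185500, 10 CpGs) was at 11.9% and 21.1% at 24 hpf, against 97.4% and 94.9% at 7 hpf (adjusted p = 1.26e-11). The adjacent window was called as well. Loss 3 (chr17:30357501-30358000, 8 CpGs) was at 17.3% and 18.5% at 24 hpf, against 95.3% and 95.4% at 7 hpf (adjusted p = 1.81e-10). Loss 4 (chr7:48338001-48338500, 6 CpGs) was at 20.6% and 7.45% at 24 hpf, against 88.2% and 93.1% at 7 hpf (adjusted p = 3.54e-10). In these 4 windows the groups were far apart, and the smallest change in a replicate was -67.6 points.

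The other 6 losses followed the same pattern. Loss 5 (chr25:16914501-16915000) was at 17.6% and 14.9% at 24 hpf, against 95.6% and 88.9% at 7 hpf. Loss 6 (chr2:22136001-22136500) was at 25% and 8.14% at 24 hpf, against 98.8% and 85.1% at 7 hpf. Its 7 hpf levels differed between the tables, and both were far above those at 24 hpf. Loss 7 (chr5:7105001-7105500) was at 20.8% and 23.9% at 24 hpf, against 96.3% and 98.8% at 7 hpf. Loss 8 (chr6:27901001-27901500) was at 27% and 20% at 24 hpf, against 98.3% and 98.2% at 7 hpf. These were the windows with the fewest CpGs, 5 each. Loss 9 (chr10:10885501-10886000) was at 22.3% and 18.5% at 24 hpf, against 97.5% and 90% at 7 hpf. Loss 10 (chr18:25645501-25646000) was at 29.2% and 15.2% at 24 hpf, against 96.7% and 93.5% at 7 hpf. In the same 10 windows PGCs were at 21.8% to 51.1% at 24 hpf, against 86.4% to 100% at 7 hpf.

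The 5 gains with the largest change, chosen by the same rule, ended at intermediate to high levels. Gain 1 (chr2:44320501-44321000, 6 CpGs) was at 86.4% and 80.8% at 24 hpf, against 9.09% and 13% at 7 hpf (adjusted p = 3.25e-08). At 4 hpf it had no methylated call among 15 in replicate 1 and 84 in replicate 2, which allows a level of up to 20% and 3.57%. Gain 2 (chr1:17836501-17837000, 9 CpGs) was at 67.0% and 63.8% at 24 hpf, against 9.94% and 11.4% at 7 hpf (adjusted p = 2.26e-07). Gain 3 (chr10:27151001-27151500, 6 CpGs) was at 91.3% and 82.4% at 24 hpf, against 18.8% and 45.7% at 7 hpf (adjusted p = 6.21e-05). Its 7 hpf libraries differed by more than those of any other named window, and at 4 hpf it was at 54.5% and 57.6%, so it did not start low. Gain 4 (chr18:34866001-34866500, 10 CpGs) was at 75% and 76.1% at 24 hpf, against 14.4% and 28.4% at 7 hpf (adjusted p = 5.14e-06). Gain 5 (chr8:43124001-43124500, 11 CpGs) was at 89.5% and 75% at 24 hpf, against 25.7% and 33.9% at 7 hpf (adjusted p = 9.22e-06). It was 1 of 4 adjacent called windows. Gain 3 lost the call with limma (adjusted p = 0.0534, against 1.74e-06 to 0.558 over its alternatives). So did gain 5 (limma, adjusted p = 0.0539, against 2.90e-08 to 0.558). The other named windows kept it with limma, at an adjusted p of 0.0200 (as in loss 1) to 0.0449 (gain 4). The much smaller edgeR values above thus depend on the test. No named window kept it when each window was thinned to its shallowest library, the fit with the weak prior that called no window at all.

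**Figure D5:**
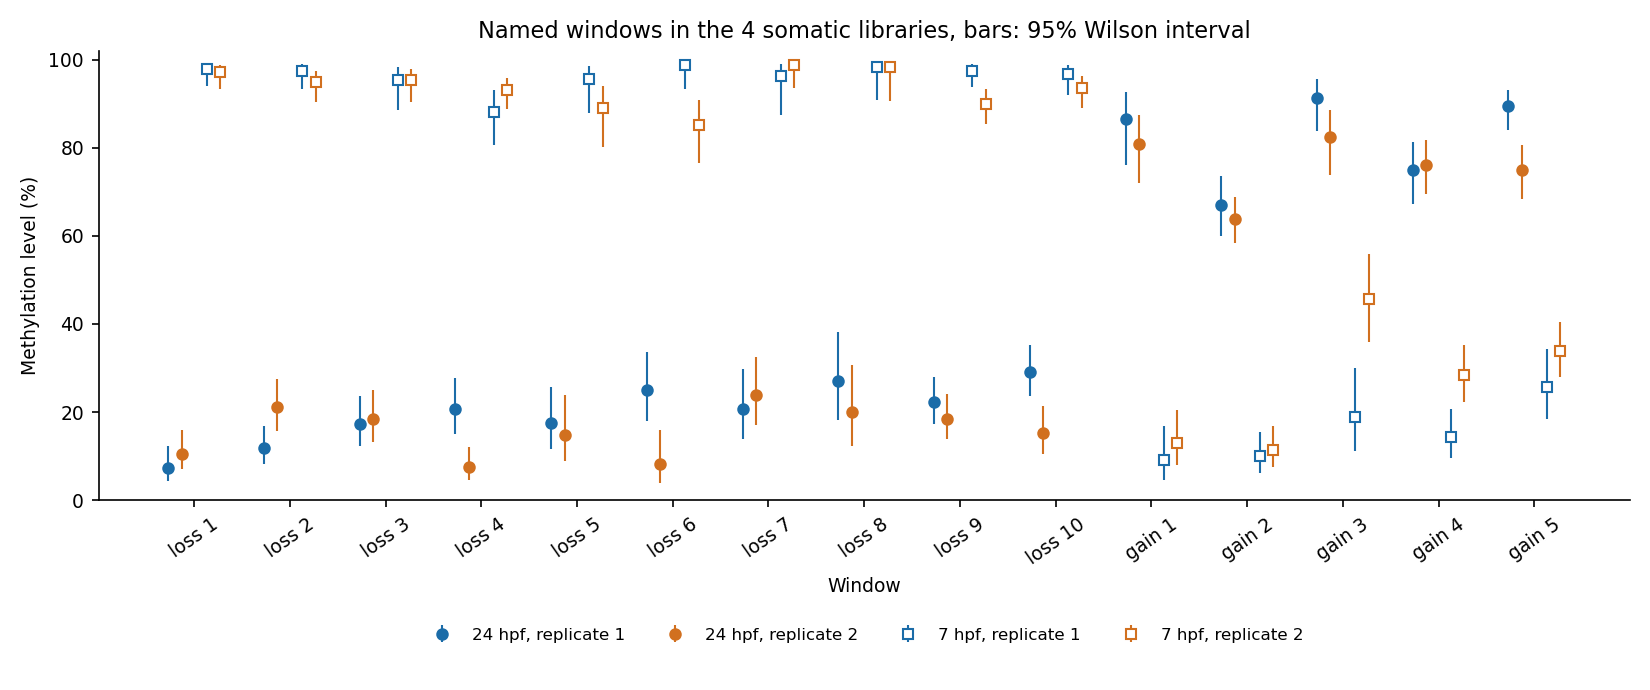
Methylation level (%) of the 10 named losses and 5 named gains in the 24 hpf libraries (filled, left of each pair) and the 7 hpf libraries (open, right), by table; bars are 95% Wilson intervals and cover counting error only. The windows were chosen for large changes, so the gap between the stages is a description.

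The longest run of called gains covered 14 windows, 7.0 kb of chromosome 4 (chr4:76319501-76326500, 667 CpGs). It was singled out after its values were seen. The run was at 61.5% and 61.3% at 24 hpf, against 27.6% and 21.5% at 7 hpf. At 4 hpf it was at 10.2% and 13.2%, and at 36 hpf at 67.7% and 66.7%, so its level was higher at each later stage. The coverage there was 263 and 99.7 calls per CpG at 24 hpf, against 255 and 166 at 7 hpf. Over all CpGs in both tables the mean was 6.74 to 15.9 calls. Whether the sequence has more copies than the assembly lists, and whether the same copies were read at each stage, was not tested. The next longest, 7 windows on chromosome 18 (chr18:13476501-13480000), was at 58.1% and 52.0% at 24 hpf, against 17.6% and 21.5% at 7 hpf. Its coverage was 22.8 and 27.3 calls per CpG at 24 hpf, against 14.2 and 27.6 at 7 hpf, which is also above the library means. Among the losses the longest runs covered 5 windows. One on chromosome 17 (chr17:41894501-41897000) was at 58.5% and 57.1% at 24 hpf, against 97.4% and 96.3% at 7 hpf. Shallower ones lay on chromosomes 11 and 24. The run on chromosome 11 (chr11:19867501-19870000) was at 66.5% and 70.2% at 24 hpf, against 96.6% and 96.1% at 7 hpf. That on chromosome 24 (chr24:23169001-23171500) was at 71.0% and 67.3%, against 93.8% and 95.1%.

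PGCs sorted from embryos of the same stages also had lower levels at 24 hpf. Over the CpGs in both tables, PGCs had a mean change of -2.03 and -1.85 points from 7 to 24 hpf (exact two-sided permutation p = 0.333), against -0.882 and -2.11 in soma. The change in soma minus that in PGCs was 0.444 points (exact permutation of cell types within stages, p = 0.833), and it was -0.132 points without the 7 hpf soma library of replicate 1. A window-wise test of whether the change differed between soma and PGCs (edgeR, 8 libraries, 727797 windows) called 0% of windows at an adjusted p under 0.05, with 24909 windows (3.42%) at an unadjusted p under 0.05. limma called 0 as well, with 28063 at an unadjusted p under 0.05. With the replicate number as a term edgeR called 46, of which 19 had the more negative change in soma and the rest did not. A count of 0 in this design does not show that the changes were alike.

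In the windows chosen for a loss in soma, the loss was also seen in PGCs and smaller there. Measured in the other table, soma had a mean change of -29.6 points and PGCs of -25.8 in replicate 2, and soma of -27.8 and PGCs of -23.1 in replicate 1. Choosing the windows on PGCs instead did not turn this around: soma then had a mean change of -28.3 points and PGCs of -24.7 in replicate 2, and soma of -28.6 and PGCs of -24.1 in replicate 1. For the gains chosen on PGCs, soma had a mean change of 11.5 points and PGCs of 8.92 in replicate 2, and soma of 18.9 and PGCs of 13.1 in replicate 1. By 36 hpf the mean levels of the windows chosen for a loss in soma were 47.5% in soma and 49.5% in PGCs in replicate 2, and 55.0% in soma and 49.9% in PGCs in replicate 1, an order that was not shared by the tables. These differences between cell types are descriptions of chosen windows and were not tested beyond the window-wise fit.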

How the data were processed

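The authors' methods name fastp 0.12.5 for trimming, WALT for mapping to danRer10 plus lambda, Picard 2.3.0 for duplicates and MethylDackel for CpG calls with the strands merged. The deposited values are raw counts of methylated and of all calls per CpG, in a separate table for each replicate number. A CpG is listed where all 8 libraries of the table had a call, so the shallowest one limits the list. Intervals cover counting error only, since reads can share a molecule. The authors' methods call the replicates of 7, 24 and 36 hpf biological and those of 4 hpf technical, and the labels do not say which clutches they came from.

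Windows were tested with edgeR 4.0.16 (R 4.3.3) (paired methylated and unmethylated counts, a term per library, 1 dispersion estimated on 20000 windows) with Benjamini-Hochberg adjustment. limma 3.58.1 used log2 ratios with a pseudocount of 1. Exact permutation and Fisher's tests ran in Python 3.11.15 (numpy 2.4.6, scipy 1.17.1). The tests were checked on simulated data. Named windows were the 10 losses and 5 gains with the largest mean change under the depth limits given above, skipping windows within 1 kb of one named. Alternatives covered depth, window size, threshold, test, thinning, the replicate number and leaving out libraries; library-wide thinning was added after seeing the data. The comparison, classes and rules were chosen with earlier results of these data known.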

Additional observations from a re-analysis of the deposited data

How the results depend on the processing

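Requiring 50 calls and 10 CpGs left 260777 windows and called 4402 lower and 655 higher. limma called 3645 and 321, and a change of at least 20 points in both tables was met by 6321 and 864. Thinning each window to the smallest of its 4 libraries called 0 lower and 0 higher windows by edgeR (63518 at an unadjusted p under 0.05), with a prior of 1.24 degrees of freedom against 64 without thinning. Thinning whole libraries to the shallowest total, added after seeing the data, called 9155 and 1103. Leaving out 1 library gave 7508 to 8979 lower and 875 to 1436 higher windows, a level change of -2.07 to -0.920 points, a soma minus PGC change of -0.132 to 1.02 points, and 0 to 5 windows with a different change in PGCs. With the replicate block the level change was -1.50 points (exact sign-flip permutation p = 0.5), 11865 windows were lower and 1519 higher, and 46 differed from PGCs. The labels do not say what a shared replicate number means, and the deviations of same-numbered libraries had r = 0.134 across windows. As the mean of fractions per CpG, soma minus PGC was -0.337 points. Losses chosen in one table measured -21.8 points in the other at a minimum of 10 points, -36.5 at 30 points and -26.6 in 1 kb windows. With level classes from the same table's 7 hpf soma library, windows at 50 to 80% changed by 3.28 and those at 80 to 90% by 0.180 points, and with classes from its PGC library those at 50 to 80% changed by 0.153. The cause was not tested. Of 156 refits of named windows 139 kept an adjusted p under 0.05. The exceptions were 15 under the thinning per window and 2 with limma (gains 3 and 5). Other planned settings kept the direction and the counts within 1.5 times.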

Other observations

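The share of windows called lower differed between chromosomes more than the mean change did. It ranged from 1.03% on chromosome 4 to 2.06% on chromosome 22, with 2% on chromosome 7 and 1.98% on chromosome 13, while the mean change of a window ranged over chromosomes from -2.75 points to -2.23 points in replicate 1. Chromosome 4, with the smallest share of losses, had a mean change of -2.47 and -2.33 points, close to that of the whole genome. Windows called higher took between 0.112% (chromosome 13) and 0.296% (chromosome 9). These shares were not tested against each other.

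Around windows chosen for a loss, the change did not fade evenly with distance. It was -4.31 points in replicate 1 and -4.54 in replicate 2 at 1.5 kb, and larger again at 3.0 kb, at -5.75 and -6.32 points, before it returned to -4.76 and -5.11 points at 4.5 kb. The dip at 3.0 kb was present in both tables. Of the windows chosen in replicate 1, 70.8% also lost at least 20 points in replicate 2, and 66.3% the other way round. Many of the neighbours read were therefore the same, and the tables are not independent repeats of the dip. The number of neighbouring windows with enough calls moved with it, with 5662 at 1.5 kb and 6933 at 3.0 kb in replicate 1, and 4746 and 5815 in replicate 2. Whether the windows that could be read set this shape was not tested.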
